A study of Mus musculus with 10 samples.

Results

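A set of 40 genes of protein folding, ER-associated degradation (ERAD) and stress signalling in the endoplasmic reticulum (ER) was followed across the libraries. They were taken by name from a list of ER chaperones, disulfide isomerases, ERAD factors, translocon subunits, stress sensors and ATF4 targets, and all 40 were found among the 27151 genes of the table. The tissue was tongue of C57BL/6J mice that had all received 4NQO, a chemical carcinogen used to raise lesions of the mouth. The mice were given SP2509, which inhibits the histone demethylase LSD1 (6 libraries), or vehicle (4 libraries), so 4NQO exposure is shared by every library. The titles write the drug as SP2509h. The sources used here do not give dose, duration, sex, age, lesion stage or the mouse behind each library. The p-values therefore rest on library-to-library spread, some of which may be technical.

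The ER folds proteins that enter it through the SEC61 channel, with the Hsp70 chaperone BiP and its cofactors, lectin chaperones and disulfide isomerases. Proteins that fail to fold are moved back to the cytosol and degraded, which is ERAD. When unfolded proteins build up, the sensors IRE1, ATF6 and PERK signal. IRE1 splices the XBP1 mRNA and ATF6 is cut to release a transcription factor, and both raise mainly chaperone and ERAD genes. PERK phosphorylates eIF2alpha, which favours translation of ATF4, and ATF4 drives amino acid, redox and feedback genes. Counts per gene show none of splicing, cleavage or phosphorylation, so every value below is an mRNA level.

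The values are normalised read counts per gene. The whole reads behind them summed to 15748571 to 19375555 per SP2509 library and to 9180844 to 14768955 per vehicle library, and mitochondrial genes took 24.0% to 32.2% of them in SP2509 and 35.3% to 52.1% in vehicle. Markers of skeletal muscle and keratinocytes, the main tissues of tongue, were abundant in every library. Of 9 muscle markers 8 had a positive log2 fold change, with a median of 0.80. Their summed level was 314826 to 848729 normalised reads in SP2509 against 185459 to 379414 in vehicle. Of 8 keratinocyte markers 7 were positive, with a median of 0.44. Their summed level was 235364 to 256674 in SP2509 replicates 1 to 3 and 51394 to 130109 in replicates 4 to 6. Vehicle had 90457 to 126826. None of these markers passed in limma. Among genes with many reads, SP2509 replicates 1 and 2, and replicates 4 and 5, lay closer to each other than the other 19 pairs of libraries within a group. Among genes with few reads replicates 1 and 2 were again the closest pair. There vehicle replicates 3 and 4, and SP2509 replicate 3 with replicates 1 and 2, lay closer than SP2509 replicates 4 and 5. Each close pair was averaged into a single unit for means and SDs (n = 4 SP2509 units, n = 4 vehicle libraries). SP2509 replicates 4 and 5 also stood apart by gland transcripts. The summed level of 10 mucous and serous gland markers was 376137 and 390973 normalised reads in these libraries, 5809.5 in SP2509 replicate 6, 27.9 to 40.4 in SP2509 replicates 1 to 3, and 38.9 to 399 in vehicle. Gland cells secrete protein and hold much ER, and results are therefore given with and without replicates 4 and 5. The fits without them still hold replicate 6, whose gland markers were above the vehicle range. Of 6 macrophage markers 5 were positive and 1, C1qb, was higher, with a median log2 fold change of 0.53 and a summed level of 953 to 1745 in SP2509, highest in replicates 4 and 5, against 655 to 1124 in vehicle. Of 6 plasma cell markers 4 were tested and 1, Ighm, was lower, with a median of -0.52 and a summed level of 1108 to 3688 in SP2509 against 1588 to 2024 in vehicle. Of 6 fibroblast markers 1 was lower, with a median of 0.023 and a summed level of 10028 to 12242 in SP2509 against 9238 to 11628 in vehicle. The part of these cell types in the results was not tested. In a bulk sample, more cells of a type and more RNA per cell cannot be told apart.

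In the fit of all 10 libraries, 8 of the 40 genes were higher with SP2509 and none was lower. They were the chaperone genes Hspa5, Calr, Canx, Dnajb9 and Dnajb11, the ERAD genes Herpud1 and Derl1, and the sensor gene Atf6. Over all 17088 genes tested, 4.95% were called higher and 4.15% lower at a limma adjusted p under 0.05, which were 846 and 709 genes. After quantile normalization the split turned to 666 genes higher (3.90%) and 1060 lower (6.20%), with 3 of the 40 higher, and with TMM scaling it was 954 higher and 582 lower, with 10 of the 40 higher. A positive log2 fold change (SP2509 over vehicle) was seen in 38 of the 40, against 51.9% of all genes, and the median was 0.59, against 0.021 over all genes. In 13 of the 40 every SP2509 library lay above every vehicle library, as did 6.54% of all genes. In none of the 40 did every SP2509 library lie below, as was so for 5.11% of all genes.

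In edgeR on all 10 libraries 13 of the 40 were called, all higher, against 5.34% higher and 3.42% lower of all genes. With the close pairs merged 0 of the 40, and 0% of all genes in either direction, passed in limma (lowest adjusted p = 0.0718) or edgeR, and the 8 genes had limma adjusted p of 0.0718 to 0.122. At an unadjusted p under 0.05, 19 of the 40 were then higher and none lower, against 11.6% and 9.67% of all genes. DESeq2 on the merged pairs called 14 of the 40, all higher, against 5.04% higher and 4.76% lower of all genes.

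**Figure D1:**
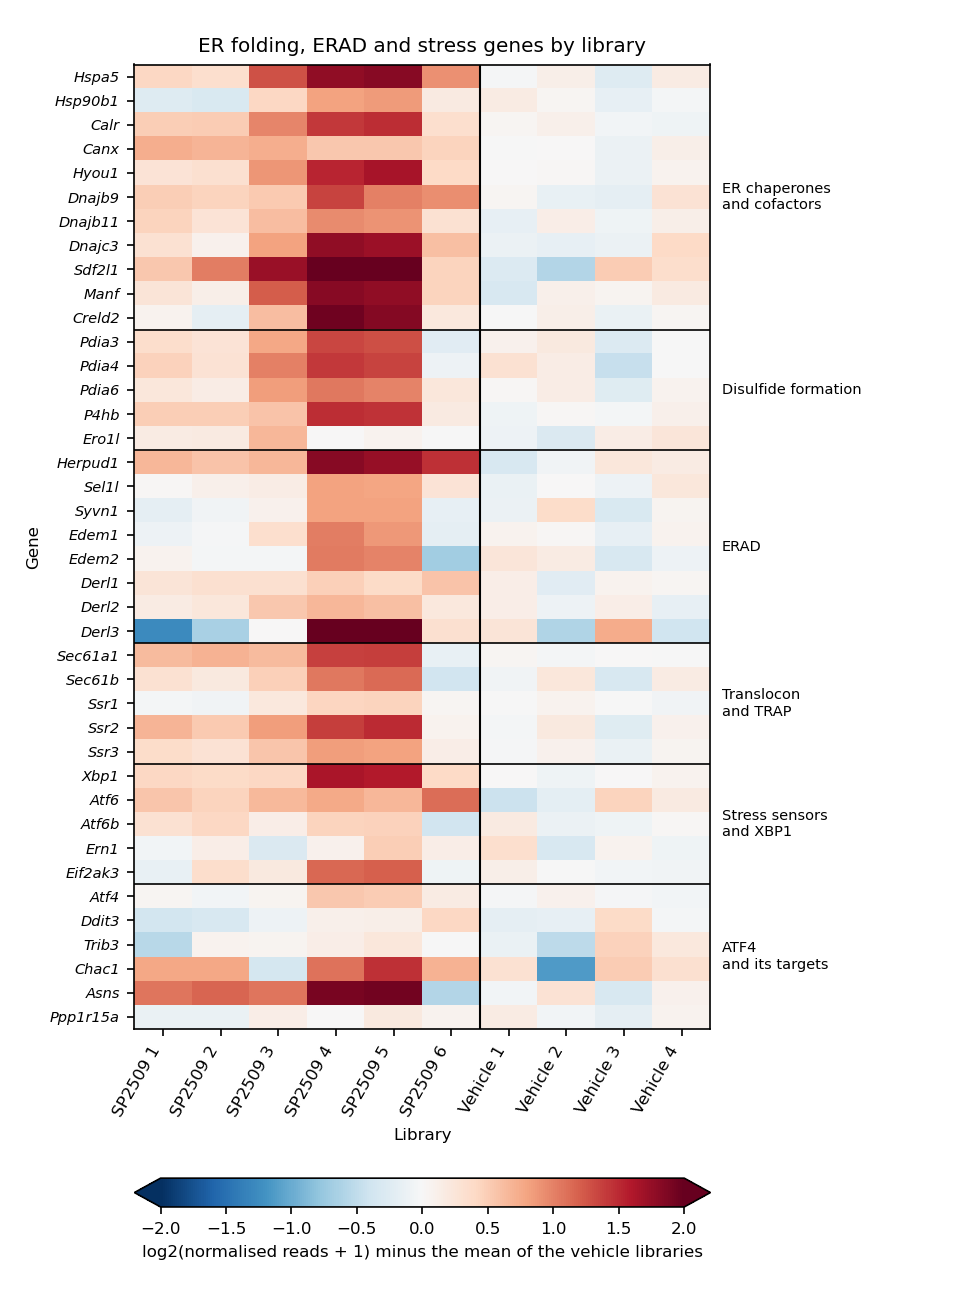
Heat map of 40 genes (rows, by role) in 6 SP2509 and 4 vehicle libraries (columns), coloured by log2(normalised reads + 1) minus the mean of the vehicle libraries. SP2509 replicates 4 and 5 lay above all 8 other libraries in 32 of the 40 rows.

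Much of the size of these differences sat in replicates 4 and 5. In 32 of the 40 genes both replicates lay above all 8 other libraries, a pattern found in 8.30% of all genes tested. The exceptions were Canx, Derl1, Atf6, Ern1, Ero1l, Ddit3, Trib3 and Ppp1r15a. Without replicates 4 and 5 the median log2 fold change of the 40 was 0.35, against 0.019 over all genes, and 33 of the 40 were positive, against 51.8% of all genes. A single gene of the 40, Canx, passed in that fit, in which 1.28% of all genes were called higher and 0.913% lower. That fit counts SP2509 replicates 1 and 2 as separate libraries. With these also merged (3 SP2509 units) 0 of the 40 and 0% of all genes passed in limma, the only tool run on them, and the lowest adjusted p over all genes was 0.131. At an unadjusted p under 0.05, 16 of the 40 were then higher and none lower, against 9.93% and 8.58% of all genes. Leaving out 1 library moved the count of 8 to 1 without vehicle replicate 1 or 2, and to 2 without SP2509 replicate 5. It was 3 without any 1 of SP2509 replicates 3 and 4 and vehicle replicates 3 and 4. Without SP2509 replicates 1, 2 and 6 it was 5, 6 and 21. Higher calls over all genes moved as well, from 846. They were 171, 614, 378 and 483 without vehicle replicates 1 to 4, and 382, 455, 391, 464 and 428 without SP2509 replicates 1 to 5. Without SP2509 replicate 6 they rose to 1971, where 11.5% of all genes were called higher and 8.71% lower. With the muscle marker score as a covariate 9 of the 40 were called higher, of which 3 (Calr, Canx and Dnajb11) were among the 8, against 7.06% higher and 4.64% lower of all genes.

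**Figure D2:**
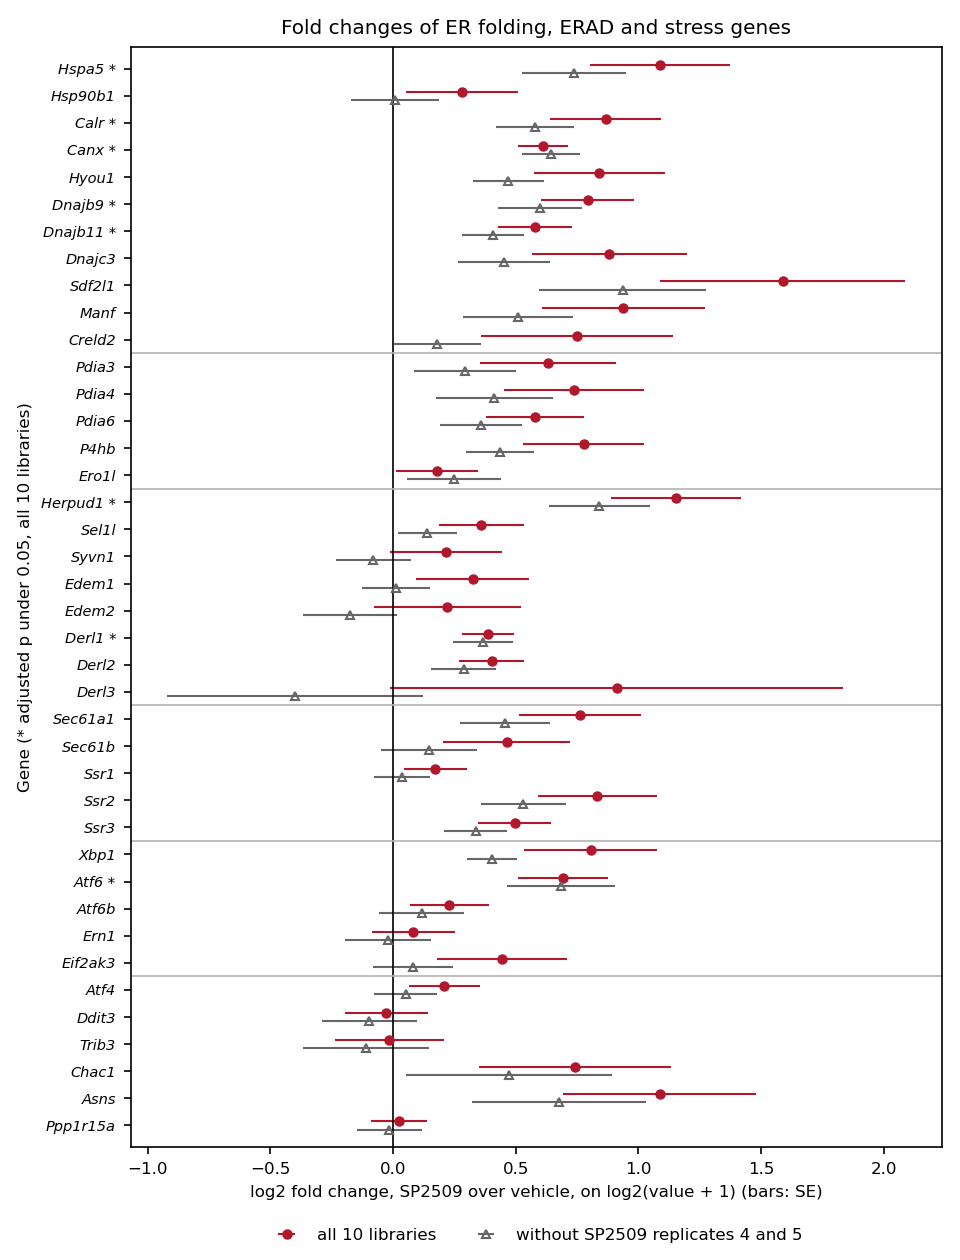
Log2 fold change of SP2509 over vehicle with its SE for each of the 40 genes, from all 10 libraries and without SP2509 replicates 4 and 5. Canx stands at 0.61 and 0.64 in the 2 fits, while Hspa5 stands at 1.09 and 0.74.

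Promoter sequences are shown because the arms of the response act through different short elements. Matches here did not assign every gene to an arm, and many windows held none. The ER stress response element (ERSE), bound by ATF6 with the CCAAT-binding factor NF-Y, was searched as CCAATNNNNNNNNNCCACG, and its variant ERSE-II as ATTGG and CCACG with 1 base between them. The core of the XBP1 element (UPRE) was searched as TGACGTG, and the C/EBP-ATF element (CARE) that ATF4 uses as TTNCATCA. Both strands of RefSeq promoter windows (GRCm38.p6), from 250 bases before to 50 bases after a gene's start, were searched, and no matches in the 40 genes overlapped each other. A window was matched for 34 of the 40 genes, and Hyou1, Manf, Derl1, Sec61a1, Ssr2 and Atf6 had none. ERSE was found in 9 of the 34, and in 37 of 27025 genes with a window (0.137%). The 40 genes were taken by name for their part in this response, so these shares are no test of the element. Each match follows with 10 bases on either side, read along the strand of the element, with the coordinates of the element itself, the distance of its outermost base (the farthest from the start) from the start of the gene in RefSeq, and its fixed letters in capitals. RefSeq starts can differ from those of the GENCODE spans given below, and for Hspa5 the element lies inside the GENCODE span.
Hspa5, chr2:34772025-34772043, 65 bases upstream: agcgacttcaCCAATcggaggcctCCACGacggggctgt
Calr, chr8:84847075-84847093, 162 bases upstream: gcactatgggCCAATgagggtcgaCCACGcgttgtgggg
Canx, chr11:50325800-50325818, 145 bases upstream: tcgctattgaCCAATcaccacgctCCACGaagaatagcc
Hsp90b1, chr10:86705638-86705656, 212 bases upstream: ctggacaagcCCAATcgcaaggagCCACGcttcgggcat
Hsp90b1, chr10:86705533-86705551, 107 bases upstream: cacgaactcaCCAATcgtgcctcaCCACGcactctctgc
Dnajc3, chr14:118937827-118937845, 105 bases upstream: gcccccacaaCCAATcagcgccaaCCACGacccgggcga
Creld2, chr15:88819520-88819538, 126 bases upstream: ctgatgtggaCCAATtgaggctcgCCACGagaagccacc
Pdia6, chr12:17266491-17266509, 98 bases upstream: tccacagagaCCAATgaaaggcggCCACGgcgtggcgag
Syvn1, chr19:6046532-6046550, 44 bases upstream: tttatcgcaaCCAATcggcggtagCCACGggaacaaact
Derl3, chr10:75893242-75893260, 156 bases upstream: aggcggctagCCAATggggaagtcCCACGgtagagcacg

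In the fit of all 10 libraries these 9 genes had log2 fold changes of 0.22 (Syvn1) to 1.09 (Hspa5), with a median of 0.75. Of the 9, 3 were called higher, beside 4.95% of all genes tested. The calls below are from the same fit, and whether genes with an element differed from those without was not tested. Of the 25 genes with a window and no ERSE, 3 were called higher and the median was 0.45. Of the 28 other genes of the genome with an ERSE in their window 10 were tested, and none of these was called higher, 1 was called lower and the median was -0.42. None of the 6 genes of the ATF4 arm had an ERSE. ERSE-II was found in Herpud1 and Dnajb11, both called, and in 0.0444% of all genes with a window. Of the 10 other genes with an ERSE-II 7 were tested. Of these 1 was called higher and 2 lower, and the median was 0.45. The UPRE core was found in Hspa5 alone among the 34, and in 2.22% of all genes. The CARE was found in Asns, Chac1, Trib3 and Herpud1, and in 4.51% of all genes. These 4 genes had a median of 0.91 and 1 was called higher. The 30 genes with a window and no CARE had a median of 0.48, and 5 were called higher. Of 333 other genes tested with a CARE 15 were called higher and 12 lower, with a median of 0.021. A match is a stretch of letters and not a bound site. The windows of Hspa5 (UPRE core and ERSE in capitals) and Canx (ERSE in capitals), the called chaperone gene with the largest difference and the gene of the 40 that also passed without replicates 4 and 5, are given on the strand of the gene.
Hspa5, chr2:34771840-34772139, plus strand: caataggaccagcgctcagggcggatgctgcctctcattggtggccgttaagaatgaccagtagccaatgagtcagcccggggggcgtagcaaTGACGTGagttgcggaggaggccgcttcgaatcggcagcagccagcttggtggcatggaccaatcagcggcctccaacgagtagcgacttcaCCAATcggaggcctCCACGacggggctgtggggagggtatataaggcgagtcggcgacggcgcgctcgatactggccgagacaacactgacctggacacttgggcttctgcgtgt
Canx, chr11:50325624-50325923, minus strand: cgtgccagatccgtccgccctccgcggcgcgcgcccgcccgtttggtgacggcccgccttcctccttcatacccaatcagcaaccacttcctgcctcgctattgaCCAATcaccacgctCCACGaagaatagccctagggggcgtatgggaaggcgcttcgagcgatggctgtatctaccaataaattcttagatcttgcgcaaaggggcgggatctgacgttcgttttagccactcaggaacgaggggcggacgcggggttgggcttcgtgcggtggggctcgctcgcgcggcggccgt

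Hspa5 encodes BiP, the Hsp70 of the ER lumen that also holds the stress sensors inactive (chromosome 2, 34771970 to 34777547, GRCm38, as for all coordinates below). Its lowest, median and highest values were 1866, 3172 and 5179 normalised reads in SP2509, against 1448, 1600, 1227 and 1654 in vehicle replicates 1 to 4. The groups did not overlap, and the highest SP2509 values were those of replicates 4 and 5. SP2509 replicate 3 followed with 3573. Hspa5 averaged 3340 ± 1352 in SP2509 and 1482 ± 191 in vehicle (SD, n = 4 each). Over all 10 libraries it rose, with a log2 fold change and SE of 1.09 ± 0.29 (limma adjusted p = 0.0371). This became 0.74 ± 0.21 (limma adjusted p = 0.0833) without replicates 4 and 5. As for the genes below, both p-values count replicates 1 and 2 as separate libraries, and the first also replicates 4 and 5. On the n = 4 units, with the close pairs merged, the limma adjusted p of Hspa5 was 0.07965.

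Calr and Canx encode calreticulin and calnexin, lectin chaperones that hold glycoproteins until they fold. Calr (chromosome 8, 84841850 to 84846934) ranged from 2290 to 5024 normalised reads in SP2509, with a median of 3074, against 1862, 1941, 1751 and 1704 in vehicle. All 6 SP2509 libraries were above the vehicle range, and replicate 6 was the lowest of them. Calr rose, at 0.87 ± 0.23 (limma adjusted p = 0.0365, or 0.0978 with the close pairs merged). It was at 0.58 ± 0.16 (limma adjusted p = 0.0750) without replicates 4 and 5.

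Canx (chromosome 11, 50293961 to 50325673) ranged from 1404 to 1717 normalised reads in SP2509, with a median of 1577, against 1025, 1033, 956 and 1121 in vehicle. The SP2509 libraries lay close together, all above vehicle, and replicates 4 and 5, at 1499 and 1504, were not the highest. Canx averaged 1574 ± 146 in SP2509 and 1034 ± 67.5 in vehicle (SD, n = 4 each). It rose, at 0.61 ± 0.10 (limma adjusted p = 0.0118), and still passed without replicates 4 and 5, at 0.64 ± 0.12 (limma adjusted p = 0.0433). Both p-values count replicates 1 and 2 as separate libraries. With the close pairs merged the limma adjusted p was 0.0718, and with replicates 1 and 2 merged and 4 and 5 left out Canx was at 0.62 (limma adjusted p = 0.134).

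**Figure D3:**
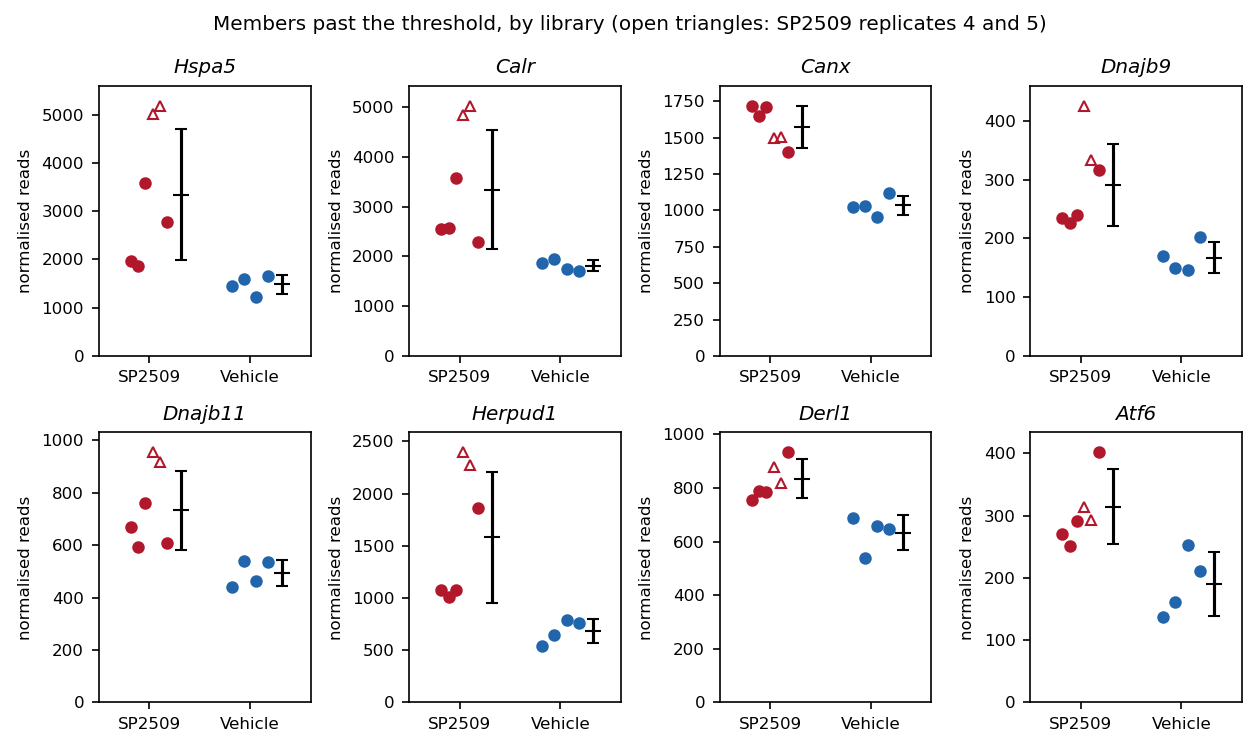
Normalised reads of the 8 genes past the threshold in each SP2509 (left) and vehicle (right) library, with triangles for SP2509 replicates 4 and 5 and bars for the mean and SD over 4 SP2509 units or 4 vehicle libraries. Every SP2509 point lies above every vehicle point except for Atf6, where SP2509 replicate 2 had 251.6 and vehicle replicate 3 had 252.0 normalised reads.

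BiP works with J-domain proteins, which hand it substrates. Dnajb9 (ERdj4; chromosome 12, 44205559 to 44210326) had 226 to 426 normalised reads in SP2509, with a median of 278, against 171, 149, 146 and 203 in vehicle. It rose, at 0.79 ± 0.19 (limma adjusted p = 0.0287, or 0.0823 with the close pairs merged). Dnajb9 was at 0.60 ± 0.17 (limma adjusted p = 0.0808) without replicates 4 and 5. Dnajb11 (ERdj3; chromosome 16, 22857845 to 22879634) had 594 to 954 in SP2509, with a median of 715, against 441, 539, 463 and 537 in vehicle. It rose, at 0.58 ± 0.15 (limma adjusted p = 0.0371, or 0.1046 with the close pairs merged). Dnajb11 was at 0.41 ± 0.13 (limma adjusted p = 0.0988) without replicates 4 and 5. The groups overlapped for neither gene. Dnajc3 (P58IPK), another J-domain cofactor of BiP, was at 0.88 ± 0.32 (limma adjusted p = 0.0927), and SP2509 replicates 1 and 2, at 413 and 354 normalised reads, lay below vehicle replicate 4 at 442.

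The other chaperones and cofactors did not pass, and their SP2509 libraries were widely spread. Sdf2l1, a partner of ERdj3, had the largest log2 fold change of the 40, 1.59 ± 0.50 (limma adjusted p = 0.0636). Its values were 92.4, 129.5, 210.4, 479.5, 467 and 86.3 normalised reads in SP2509 replicates 1 to 6, against 51.9, 41.5, 90.1 and 80.8 in vehicle. SP2509 replicates 1 and 6 were next to or within the vehicle range, and replicates 4 and 5 were the highest. Manf, an ER-resident factor that is also secreted, was at 0.94 ± 0.33 (limma adjusted p = 0.0892), and Hyou1, the nucleotide exchange factor GRP170, at 0.84 ± 0.27 (limma adjusted p = 0.0652). All 6 SP2509 libraries (589.9 to 1527 normalised reads) were above the vehicle maximum of 514 for Hyou1.

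Creld2, an ER protein induced by stress, was at 0.75 ± 0.39 (limma adjusted p = 0.231), with 885 and 817 normalised reads in SP2509 replicates 4 and 5, 201 to 352 in the rest of SP2509, against 208 to 247 in vehicle. Hsp90b1, the ER form of Hsp90, was at 0.28 ± 0.23 (limma adjusted p = 0.449). SP2509 replicates 1 and 2 had 1546 and 1498 normalised reads of it, below the vehicle minimum of 1646, while the other SP2509 libraries had 2078 to 3312. All 11 chaperone and cofactor genes had fold changes above 0, 5 were called and the median was 0.84, or 0.51 without replicates 4 and 5.

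None of the 5 genes of disulfide formation passed, and their median was 0.63, or 0.36 without replicates 4 and 5. P4hb, protein disulfide isomerase and a subunit of collagen prolyl hydroxylase, was at 0.78 ± 0.25 (limma adjusted p = 0.0646), with 2532 to 6185 normalised reads in SP2509 against 2101 to 2407 in vehicle. Pdia6 was at 0.58 ± 0.20 (limma adjusted p = 0.0821), with 965 to 1797 in SP2509 against 733 to 959.7 in vehicle. In both genes every SP2509 library exceeded every vehicle library, for Pdia6 by a narrow margin. Pdia3, which pairs with calnexin and calreticulin, was at 0.63 ± 0.28 (limma adjusted p = 0.161), and Pdia4 at 0.74 ± 0.29 (limma adjusted p = 0.117). SP2509 replicate 6 lay inside the vehicle range for both, at 1773 and 552 normalised reads. Without replicate 6 Pdia3, Pdia4, Pdia6 and P4hb passed, with limma adjusted p of 0.0283, 0.0294, 0.0343 and 0.0173. In that fit, which counts the close pairs as separate libraries, 11.5% of all genes were called higher. With the close pairs merged and replicate 6 kept, the limma adjusted p of these genes were 0.3042, 0.2361, 0.152 and 0.1565. Ero1l, the oxidase that recharges the isomerases, was at 0.18 ± 0.17 (limma adjusted p = 0.515), and in SP2509 only replicate 3, at 272, was above the vehicle maximum of 203.

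Of 8 ERAD genes 2 were higher. Herpud1, a ubiquitin-like membrane protein of the HRD1 ligase complex (chromosome 8, 94386438 to 94395377), had 1081, 1010, 1080, 2393, 2271 and 1861 normalised reads in SP2509 replicates 1 to 6, against 543, 649.6, 791 and 761 in vehicle. All SP2509 libraries were above the vehicle range, with replicates 1 to 3 close together and replicates 4 to 6 well above them. Herpud1 rose, at 1.15 ± 0.26 (limma adjusted p = 0.0240, or 0.0751 with the close pairs merged). It was at 0.84 ± 0.21 (limma adjusted p = 0.0599) without replicates 4 and 5. Its promoter window carries both a CARE and an ERSE-II, in capitals here in that order.
Herpud1, chr8:94386179-94386478, plus strand: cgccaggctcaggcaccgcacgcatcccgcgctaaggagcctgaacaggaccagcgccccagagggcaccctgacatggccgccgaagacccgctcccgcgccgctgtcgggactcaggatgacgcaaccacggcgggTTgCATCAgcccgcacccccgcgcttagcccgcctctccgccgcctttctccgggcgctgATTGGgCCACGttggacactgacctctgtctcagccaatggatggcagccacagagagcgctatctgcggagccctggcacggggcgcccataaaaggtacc

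Derl1 (chromosome 15, 57869502 to 57892448), a derlin that guides substrates out of the ER, had 756 to 933 normalised reads in SP2509, with a median of 803, against 688, 539, 659 and 646 in vehicle. The groups were separate, and the highest SP2509 library was replicate 6. Derl1 rose, at 0.39 ± 0.10 (limma adjusted p = 0.0402, or 0.1221 with the close pairs merged). It was at 0.37 ± 0.12 (limma adjusted p = 0.116) without replicates 4 and 5. Its paralog Derl2 was at 0.40 ± 0.13 (limma adjusted p = 0.0733), with 435 to 617 in SP2509 against 346 to 427 in vehicle, again without overlap.

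The other ERAD genes did not pass either. Sel1l, the adaptor of HRD1, was at 0.36 ± 0.17 (limma adjusted p = 0.197), and Syvn1, which encodes HRD1 itself, at 0.22 ± 0.23 (limma adjusted p = 0.571). Edem1 and Edem2, which act on the mannose of misfolded glycoproteins, were at 0.32 ± 0.23 (limma adjusted p = 0.381) and 0.22 ± 0.30 (limma adjusted p = 0.669). Without replicates 4 and 5 Syvn1 and Edem2 were at -0.080 and -0.17. Derl3 was the scarcest of the 40, with 443 reads in the 6 SP2509 libraries and 38 reads in the 4 vehicle libraries. It stood at 139 and 165 normalised reads in SP2509 replicates 4 and 5, at 4.47 to 15.5 in the remaining SP2509 libraries, and at 7.68 to 21.1 in vehicle. Outside the gland-rich pair the groups overlapped, and the log2 fold change was 0.91 ± 0.92 (limma adjusted p = 0.555) with that pair and -0.40 ± 0.52 (limma adjusted p = 0.679) without it.

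At the entry to the ER none of 5 genes passed and all 5 fold changes were above 0, with a median of 0.50. Sec61a1, the channel-forming subunit of the translocon, was at 0.76 ± 0.25 (limma adjusted p = 0.0696), and 5 of 6 SP2509 libraries (558 to 939 normalised reads) lay above the vehicle range of 349 to 371. SP2509 replicate 6 had 326, below every vehicle library, and without it Sec61a1 passed at 0.94 (limma adjusted p = 0.00401). With replicate 6 kept and the close pairs merged, the limma adjusted p of Sec61a1 was 0.1963. Sec61b, a small subunit of the channel, was at 0.46 ± 0.26 (limma adjusted p = 0.262). Subunits of the translocon-associated TRAP complex were at 0.17 ± 0.13 (limma adjusted p = 0.406) for Ssr1, 0.83 ± 0.24 (limma adjusted p = 0.0506) for Ssr2 and 0.50 ± 0.15 (limma adjusted p = 0.0551) for Ssr3. Ssr2 shares 12.8% of its exonic bases with an annotated gene on the other strand, Hsp90b1 10.3%, Sec61a1 8.16% and Eif2ak3 8.05%, and the sources used here give no strand setting for the counting, so reads of the partners cannot be told apart.

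Among 5 genes of the sensors and XBP1, Atf6 was higher (chromosome 1, 170704674 to 170867771). It had 252 to 401 normalised reads in SP2509, with a median of 292, against 137, 161, 252 and 211 in vehicle. SP2509 replicate 2 was level with vehicle replicate 3, and the other 5 SP2509 libraries were above every vehicle library, replicate 6 the most. Atf6 rose, at 0.69 ± 0.18 (limma adjusted p = 0.0376, or 0.1085 with the close pairs merged). It was at 0.69 ± 0.22 (limma adjusted p = 0.104) without replicates 4 and 5. With the muscle marker score as a covariate it was at 0.41 (limma adjusted p = 0.143). Its relative Atf6b was at 0.23 ± 0.16 (limma adjusted p = 0.376).

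Xbp1, whose spliced form drives chaperone and ERAD genes, had 1265, 1240, 1265, 2926, 2848 and 1248 normalised reads in SP2509 replicates 1 to 6, against 949, 895, 947 and 999 in vehicle. Replicates 4 and 5 stood far above the other SP2509 libraries, which lay between 1240 and 1265 and still exceeded every vehicle library. The log2 fold change was 0.81 ± 0.27 (limma adjusted p = 0.0774) over 10 libraries and 0.41 ± 0.10 (limma adjusted p = 0.0624) without replicates 4 and 5. Ern1, which encodes the splicing enzyme IRE1alpha, was at 0.083 ± 0.17 (limma adjusted p = 0.785), with 186 to 321 in SP2509 against 181 to 286 in vehicle. Eif2ak3, which encodes PERK, was at 0.45 ± 0.27 (limma adjusted p = 0.294). It stood at 371 and 387 in SP2509 replicates 4 and 5, at 151 to 215 in the remaining SP2509 libraries, and at 159.8 to 182 in vehicle.

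None of the 6 genes of the ATF4 arm passed, beside 4.95% of all genes called higher. Of the 6, 4 had fold changes above 0 and the median was 0.12. Atf4 itself, which is controlled largely at translation, was the most abundant of the 40 per kilobase of exon, at 1551 normalised reads per kilobase in SP2509 and 1352 in vehicle. It had 3082 to 4640 normalised reads in SP2509, with a median of 3427, against 3139, 3394, 3136 and 3082 in vehicle, and was at 0.21 ± 0.15 (limma adjusted p = 0.366). Replicates 4 and 5 were the highest and the groups overlapped.

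Of the targets in the feedback and death branch, Ddit3, Trib3 and Ppp1r15a lay across the vehicle range and Chac1 mostly above it. Ddit3, which encodes CHOP, was at -0.028 ± 0.17 (limma adjusted p = 0.936), with 492 to 846 normalised reads in SP2509 against 562 to 835 in vehicle. Trib3, a pseudokinase, was at -0.014 ± 0.22 (limma adjusted p = 0.976), with 66.3 to 115 in SP2509 against 67.6 to 135 in vehicle. Ppp1r15a, the GADD34 subunit that directs dephosphorylation of eIF2alpha, was at 0.025 ± 0.11 (limma adjusted p = 0.912), with 295 to 372 in SP2509 against 287 to 363 in vehicle. The sign of these 3 small differences changed under other settings. Chac1, which degrades glutathione, was at 0.74 ± 0.39 (limma adjusted p = 0.236), with 54.4, 54.4, 24.4, 68.0, 88.7 and 51.3 in SP2509 replicates 1 to 6 against 38.9, 13.8, 45.1 and 39.5 in vehicle, and 5 of 6 SP2509 libraries lay above the vehicle range.

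Asns, the asparagine synthetase gene, had 396, 422, 396, 703, 718 and 125 normalised reads in SP2509 replicates 1 to 6, against 182, 230.3, 151 and 200.2 in vehicle. In 5 of 6 SP2509 libraries it was above the vehicle range, and in replicate 6 it was below it. The log2 fold change was 1.09 ± 0.39 (limma adjusted p = 0.0967) over 10 libraries, 0.68 ± 0.36 (limma adjusted p = 0.277) without replicates 4 and 5, and 1.42 (limma adjusted p = 0.00189) without replicate 6. With replicate 6 kept and the close pairs merged, the limma adjusted p of Asns was 0.2692. Replicate 6 had the lowest summed keratinocyte markers of all libraries, 51394 normalised reads against 128782 to 256674 in the rest of SP2509 and 90457 to 126826 in vehicle. It also had the highest summed muscle markers, 848729 against 314826 to 400656 in the rest of SP2509 and 185459 to 379414 in vehicle. With the muscle score as a covariate Asns was at 1.63 (limma adjusted p = 0.0387), and the part of keratinocyte content was not tested. The CARE in the window of Asns lies on the opposite strand, so its fixed letters stand in capitals as the reverse complement.
Asns, chr6:7693160-7693459, minus strand: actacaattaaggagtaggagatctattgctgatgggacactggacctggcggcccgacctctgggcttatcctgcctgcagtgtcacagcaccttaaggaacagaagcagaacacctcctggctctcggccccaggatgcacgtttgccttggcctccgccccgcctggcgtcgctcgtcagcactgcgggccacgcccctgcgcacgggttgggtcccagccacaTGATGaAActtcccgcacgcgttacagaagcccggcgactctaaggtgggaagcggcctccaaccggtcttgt

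The ATF6/XBP1 arm was taken as 19 genes: the chaperones and cofactors without Canx, with Pdia4, Pdia6, Xbp1, Herpud1, Sel1l, Syvn1, Edem1, Derl2 and Derl3. Its median log2 fold change was 0.79, all 19 were positive and 5 were called. The 6 genes of the ATF4 arm had a median of 0.12 and no call. Over all genes 51.9% were positive and 4.95% were called higher. No call among 6 genes is close to that share. The mean log2 level of the ATF6/XBP1 arm stood 0.18, 0.19, 0.69, 1.52, 1.49 and 0.38 above the vehicle mean in SP2509 replicates 1 to 6, while the vehicle libraries lay -0.023, -0.023, -0.038 and 0.084 from it. That of the ATF4 arm stood 0.14, 0.25, 0.14, 0.63, 0.74 and 0.12 above the vehicle mean in SP2509, while the vehicle libraries lay 0.012, -0.25, 0.14 and 0.098 from it. Every SP2509 library was above every vehicle library for the ATF6/XBP1 arm, and the groups overlapped for the ATF4 arm. The difference between the arms was 0.045, -0.059, 0.55, 0.89, 0.75 and 0.26 in SP2509, against -0.035, 0.23, -0.18 and -0.014 in vehicle. SP2509 replicates 1 and 2 were inside the vehicle range of this difference and replicates 3 to 6 were above it. Without replicates 4 and 5 the median was 0.41 for the ATF6/XBP1 arm, with 17 of 19 genes positive, and 0.018 for the ATF4 arm, with 3 of 6 positive. In that fit no gene of either arm was called, beside 1.28% of all genes called higher. The arms hold different genes and their difference was not tested.

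**Figure D4:**
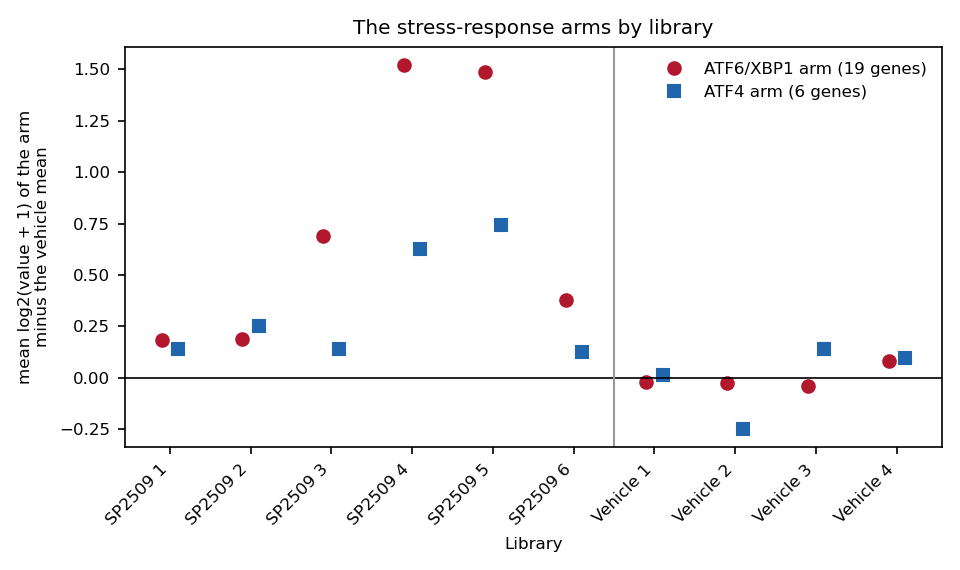
Mean log2(normalised reads + 1) of the ATF6/XBP1 arm (19 genes) and of the ATF4 arm (6 genes) in each library, minus the mean of the vehicle libraries. In SP2509 replicates 4 and 5 the ATF6/XBP1 arm stands at 1.52 and 1.49 and the ATF4 arm at 0.63 and 0.74, and in SP2509 replicates 1 and 2 the arms lie next to each other.

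Genes of the same pathways outside the 40 were higher in part and none was lower. Over all genes tested 4.95% were higher and 4.15% lower, with a median of 0.021. Without replicates 4 and 5, 1.28% of all genes were higher. Among these pathway genes 0 passed in limma with the close pairs merged. Of 24 other genes of the translocon, signal peptidase, signal recognition and N-glycosylation, 9 were higher, with a median of 0.51. Dad1, a subunit of oligosaccharyltransferase, rose, at 0.87 ± 0.14 (limma adjusted p = 0.0118), and so did Spcs1, a signal peptidase subunit, at 0.98 ± 0.18 (limma adjusted p = 0.0126). Both passed without replicates 4 and 5 as well (limma adjusted p = 0.0426 and 0.0451). Of 19 other folding genes 3 were higher, with a median of 0.36, among them Ppib, the ER cyclophilin, at 0.60 ± 0.15 (limma adjusted p = 0.0325), and Erp44, which retrieves folding clients, at 0.71 ± 0.19 (limma adjusted p = 0.0397). Of 20 other ERAD genes 3 were higher, with a median of 0.31, among them the segregase gene Vcp at 0.57 ± 0.13 (limma adjusted p = 0.0260). None of the folding and ERAD genes of these lists passed without replicates 4 and 5.

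Of 17 further genes of stress signalling 16 were tested and 3 were higher, beside 4.95% of all genes, with a median of 0.28. Eif2s1, which encodes eIF2alpha, rose, at 0.85 ± 0.17 (limma adjusted p = 0.0175), and so did Tmbim6, an ER membrane protein that inhibits cell death, at 0.70 ± 0.15 (limma adjusted p = 0.0185). Of 24 other ATF4 targets 23 were tested and 2 were higher, beside 4.95% of all genes, with a median of 0.25. They were Eif4ebp1, which encodes a repressor of translation, at 1.18 ± 0.21 (limma adjusted p = 0.0125), and Ddit4, which encodes an inhibitor of mTORC1, at 0.73 ± 0.17 (limma adjusted p = 0.0240). Eif2s1, Eif4ebp1 and Ddit4 passed without replicates 4 and 5 as well (limma adjusted p = 0.0438, 0.0491 and 0.0461). Kdm1a, the gene of the inhibited enzyme, was at 0.013 ± 0.12 (limma adjusted p = 0.958), which is no check of the drug, since an inhibitor acts on the protein.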

How the data were processed

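Per the labels' protocols, poly-A RNA was sequenced after random priming. HISAT2, featureCounts and mm10 are named, per the submitters' processing notes, without versions, annotation or strand setting. The table the authors deposited holds a scaled count signal per gene. Dividing each library by the worth of a single read gave whole reads to within 0.01 for 100% of values. Of 27151 Ensembl IDs 27113 matched a symbol. Coordinates and exon lengths come from GENCODE on GRCm38.

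From these values limma (3.58.1, R 4.3.3; intensity trend, robust, two-sided) was fitted on log2(value + 1), which understates changes of low genes, over all 10 libraries for 17088 genes with at least 10 in at least 4 libraries, among them all 40 genes. P-values were Benjamini-Hochberg adjusted over all of them. Errors beside log2 fold changes are SEs. The 2 close pairs were averaged into units. Among genes with many reads their spread was 5.2 and 5.66 times the Poisson expectation, against 19.1 to 278 times in other pairs. Among genes with few reads it was 3.19 for SP2509 replicates 4 and 5 and 2.30 for replicates 1 and 2, against 2.63 to 6.40 in other pairs. Merged-pair edgeR (4.0.16) and DESeq2 (1.42.0) fits on the recovered reads, and a limma fit without SP2509 replicates 4 and 5 and with replicates 1 and 2 merged, were chosen after seeing the data. The code was tested on simulated data. Tables and figures used Python 3.11.15, pandas 2.3.3, NumPy 2.4.6 and matplotlib 3.10.9.

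The genes and lists were chosen with earlier results of these data known. Named are all 40 genes, the 2 genes with the smallest p of each other list, and Kdm1a, and 1 gene that this rule takes is not reported here. Marker lists enter as summed levels, most also with counts and medians, and the called markers C1qb and Ighm are named. Genes named in the closing observations and promoter elements were chosen after values were seen. Alternatives were the pseudocount, filter, scaling, trend, library weights, a muscle covariate, a replicate block, count models and left-out libraries.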

Additional observations from a re-analysis of the deposited data

Results flagged for a closer look

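Single values far from the rest of their group were looked for in 80 groups (40 genes, 4 SP2509 units and 4 vehicle libraries each), and 4 were found, where chance alone flags about 1 in 20 groups. The averaged SP2509 replicates 4 and 5 stood apart for Derl3, at 152.2 normalised reads against 5.946 to 15.46 in the other SP2509 units. The same unit stood apart for Xbp1, at 2887 against 1248 to 1265, and for Eif2ak3, at 378.8 against 157.9 to 192.9. Vehicle replicate 4 stood apart for Dnajc3, at 441.8 against 296.4 to 307.8 in the other vehicle libraries. SP2509 replicates 4 and 5 also had the highest summed gland markers, 376137 and 390973 normalised reads against 5809.5 in SP2509 replicate 6, and the part of gland content in these values was not tested.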

How the results depend on the processing

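No sign of pairing by replicate number was seen, which does not exclude it. Over the 4 pairs of SP2509 and vehicle libraries with the same number, deviations correlated at -0.198 to 0.126. Pairs with different numbers gave -0.215 to 0.191. With the number as a replicate block 16 of the 40 genes were called, 7 of them among the 8, beside 1125 higher and 769 lower calls over all genes, with Ern1 at -0.032, Ppp1r15a at -0.028 and 1 gene of the other pathway lists lower. The count of the 40 called higher was 3 after quantile normalization, 1 without the intensity trend, 15 with library weights, 13 in edgeR and 21 in DESeq2 on whole reads, 14 in DESeq2 on merged pairs, 1 without SP2509 replicates 4 and 5, 0 in limma or edgeR on merged pairs, and 0 without replicates 4 and 5 with 1 and 2 merged. It was 0 lower in every alternative. Over all genes, higher and lower calls numbered 2381 and 1778 with library weights, 1618 and 1388 in DESeq2, 458 and 448 without the trend, 219 and 156 without replicates 4 and 5, 666 and 1060 after quantile normalization, 954 and 582 with TMM, 0 and 0 in limma and edgeR on merged pairs and without replicates 4 and 5 with 1 and 2 merged, and 553 were higher without a filter. Of the other pathway genes 32 were higher in DESeq2, 10 without the trend, 5 without replicates 4 and 5 0 on merged pairs in limma and edgeR, 0 without replicates 4 and 5 with 1 and 2 merged, and 1 was lower with library weights or the muscle covariate. Leaving out 1 library at a time gave 171 to 1971 higher and 107 to 1488 lower genes, 1 to 21 of the 40 higher and 0 lower, 3 to 35 other pathway genes higher and 0 to 1 lower, and medians of 0.60 to 0.89 for the ATF6/XBP1 arm and 0.07 to 0.17 for the ATF4 arm. Some signs turned. Ppp1r15a was at -0.069 after quantile normalization, -0.030 with library weights and -0.015 without replicates 4 and 5. Trib3 was at 0.011 with TMM and 0.0034 with merged pairs. Ddit3 was at 0.017 with merged pairs, 0.0059 in edgeR, and 0.052 and 0.013 in edgeR and DESeq2 on merged pairs. Without replicates 4 and 5 Syvn1, Edem2, Derl3 and Ern1 were at -0.080, -0.17, -0.40 and -0.021, and with replicates 1 and 2 merged as well at -0.065, -0.24, -0.20 and -0.039. With 1 library left out, Ern1 ranged from -0.024 to 0.19, Ddit3 from -0.12 to 0.10, Trib3 from -0.19 to 0.14 and Ppp1r15a from -0.034 to 0.079. The cause of these changes in calls and signs was not tested in any setting. Of the values of the 40 genes over all alternatives, 888 kept direction and side of the threshold, 97 fell short of it, 65 newly passed it and 28 turned sign. Depth limits Derl3 most, with 38 reads in vehicle.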

Other observations

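Further genes of ER stress signalling were high in SP2509 replicates 4 and 5, and they are named here after their values were seen. Ern2, the IRE1 form of mucous epithelia, had 0, 0, 1.75, 544, 585 and 6.51 normalised reads in SP2509 replicates 1 to 6, against 0, 0, 7.04 and 12.6 in vehicle. Creb3l1, an ER-bound transcription factor of secretory cells, had 58.8, 58.6, 62.0, 3185, 3284 and 72.4 in SP2509, against 55.6, 99.8, 60.5 and 50.3 in vehicle. Among targets of ATF4 Stc2, a secreted glycoprotein gene, had 59.6, 47.0, 49.8, 1136, 1179 and 71.6 in SP2509, against 50.1, 41.5, 97.1 and 68.2 in vehicle. For each of these 3 genes the other SP2509 libraries lay far below replicates 4 and 5. These replicates also had the highest summed gland markers, whose part was not tested.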
